A study of Mus musculus with 6 samples.

Results

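The Bcl2 family regulates apoptosis at the outer mitochondrial membrane. Anti-apoptotic proteins such as Bcl2, Bcl2l1 (Bcl-xL), Bcl2l2 (Bcl-w) and Mcl1 hold the pore-forming effectors Bax and Bak1 in check, and BH3-only proteins such as Bid, Bad, Bcl2l11 (Bim) and Bmf bind the anti-apoptotic members or activate the effectors. In hepatocytes, Mcl1 and Bcl2l1 are known to be needed for survival, and Bid links death receptors at the cell surface to mitochondria. The mRNA of Mcl1 is known for a rapid turnover in many cell types. These genes were followed in cultured fetal hepatocytes with or without Cnot3. Its protein belongs to the Cnot complex, which removes the poly(A) tail of mRNAs, the step at which most decay begins. Members were the 10 genes Bcl2, Bcl2l1, Bcl2l2, Bcl2l11, Mcl1, Bax, Bak1, Bad, Bid and Bmf, each represented by the probe set that names it alone and has the highest mean over the arrays. The annotation used here paired no probe set with Bax, which was not analysed here, so 9 of the 10 members were measured, among 18193 genes in all.

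Hepatocytes were prepared at embryonic day 16.5 from control mice, which the labels call wild type, and from Cnot3KO mice, whose floxed Cnot3 alleles are removed in the hepatic lineage by a Cre transgene that the Albumin promoter drives. In the study, mice with floxed alleles but no Cre, or with Cre and at least 1 intact allele, also served as controls, and which of these gave the arrays is not given in the sources used here. Cells of both genotypes were cultured with oncostatin M and dexamethasone, which drive hepatocyte maturation, and received actinomycin D (ActD), an inhibitor of transcription, for 0, 6 or 12 h. Total RNA was hybridised to 1 Affymetrix array for each genotype and time, 6 arrays in all. The study describes deletion as incomplete in fetal liver at this stage and efficient by the end of culture. The sources used here do not say whether embryos were pooled.

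The arrays had median intensities between 69.7 and 72.4, and 20th percentiles between 19.7 and 22.4. Because the authors' normalisation (RMA) makes the arrays alike, a shared loss of mRNA does not show, and a percentage left after ActD compares a mRNA with the typical mRNA on its array and can exceed 100. No array had a replicate. Single values therefore carry no error, and no p-value below measures variation between embryos or cultures. In the genotype comparison over the 3 times, p-values weigh how alike the difference was at each time. In fits over hours of ActD, they weigh how far the values lay from straight lines. In both, limma also draws on the variances of all genes. As a guide to technical error, the SD between probe sets of the same gene, over 4117 genes, was 0.24 (log2) when the genotypes were compared at 0 h and 0.42 when their changes over 12 h were. Cnot3 had intensities of 296, 214 and 158 at 0, 6 and 12 h in control cells and of 174, 174 and 146 in Cnot3KO cells, a genotype difference that did not pass over the 3 times (limma, adjusted p = 0.182). The sources used here do not place its probe set relative to the floxed exons, so it may check nothing about deletion.

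The RNA was not that of hepatocytes alone. At 0 h Alb stood at 35595 in control and at 34185 in Cnot3KO cells, and the summed intensity of 10 measured hepatocyte markers was between 172356 and 192599 on the control arrays and between 174126 and 183323 on the Cnot3KO arrays. All 10 granulocyte markers were above the array median on all 6 arrays, with sums between 62403 and 70779 in control and between 53667 and 64871 in Cnot3KO cells. Sums of 10 macrophage markers ran from 14921 to 17836 in control and from 13337 to 16389 in Cnot3KO cells, those of 9 leukocyte markers from 1195 to 1328 and from 996 to 1120, and those of 7 megakaryocyte markers from 4588 to 7444 and from 3456 to 4004. Of these hepatocyte, granulocyte, macrophage and leukocyte genes, 0 lay at or below the 20th percentile on all arrays. Only 3 of 9 leukocyte, 3 of 7 erythroid and 2 of 10 endothelial markers were above the array median on all 6 arrays. For 8 cholangiocyte markers sums went the other way, running from 19528 to 22792 in control and from 34148 to 41376 in Cnot3KO cells. Of the 8, 1 lay at or below the 20th percentile on all arrays. This list did not move as one. Over the 3 times 2 of its genes passed higher and 1, Pkhd1 (-1.12, log2), lower in Cnot3KO cells (limma, adjusted p under 0.05). Sox9 was lower in Cnot3KO cells at 0 h only, and Epcam at 12 h only. Sums of erythroid markers ran from 7887 to 9209 in control and from 5083 to 5643 in Cnot3KO cells. Those of endothelial markers ran from 790 to 1784 and from 503 to 1185, and those of stellate and mesenchymal markers from 24706 to 27018 and from 23230 to 27121. Sums follow bright genes, as Tfrc among erythroid markers (from 7430 to 8754 and from 4703 to 5275). The mesenchymal marker Vim ran from 12211 to 14815 in control and from 17579 to 18869 in Cnot3KO cells. The median genotype difference over the 3 times was -0.63 (log2) for stellate and mesenchymal and -0.44 for macrophage markers. Of the macrophage markers 3 passed lower and 0 higher in Cnot3KO cells (limma, adjusted p under 0.05). All these macrophage and cholangiocyte calls lay at the edge of the threshold (limma, adjusted p between 0.04987 and 0.04998). Of all genes 0.703% passed higher and 0.285% lower in this comparison. Without a filter or with centring on ribosomal protein genes 0 genes passed, and so these did not. The levels below are those of the mixture, in which fewer cells of a type and less RNA per cell cannot be told apart. What these cells contributed to the members' values was not tested.

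The 9 measured members fell into a group of 5, Mcl1, Bcl2l1, Bid, Bmf and Bcl2l11, that had between 22.0% and 31.6% of the 0 h level left after 12 h of ActD in control cells, and a group of 4, Bcl2, Bcl2l2, Bak1 and Bad, that had between 106% and 132% left. In Cnot3KO cells the same 5 had between 65.2% and 104% left, and the other 4 between 105% and 127%. At 6 h the 5 ran from 20.5% to 37.2% in control and from 57.5% to 74.1% in Cnot3KO cells. The 5 are grouped here by their low control values, and of all 2485 genes with at most 50% left at 12 h in control cells 64.1% had over 2-fold more left in Cnot3KO cells. Both groups held anti-apoptotic and BH3-only genes. At most 50% was left at 12 h for 5 of 9 members in control cells, against 15.1% of 16499 genes, and for 0 of 9 in Cnot3KO cells, against 4.38%.

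**Figure D1:**
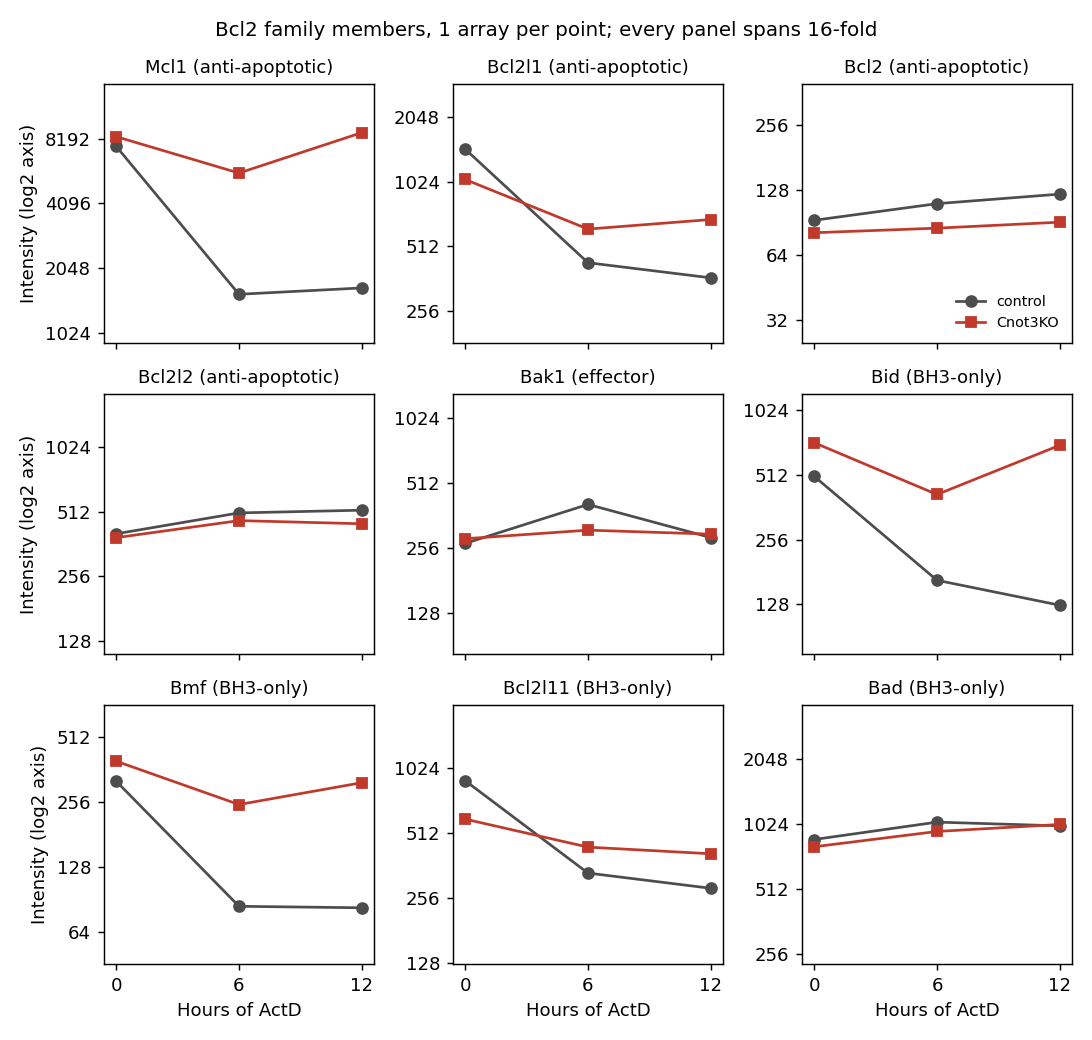
Intensity of the 9 measured Bcl2 family members (vertical log2 axis, every panel spanning 16-fold) against hours of ActD (horizontal axis) in control (grey circles) and Cnot3KO cells (red squares), with 1 array per point and therefore no error bars. Mcl1, Bcl2l1, Bid, Bmf and Bcl2l11 run below the Cnot3KO line in control cells at 6 and 12 h, whereas Bcl2, Bcl2l2, Bak1 and Bad stay at or above their 0 h value in both genotypes, Bak1 with a peak of 152% at 6 h in control cells.

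Among the anti-apoptotic genes, Mcl1, whose protein sequesters Bak1 and Bcl2l11, had intensities of 7556, 1553 and 1661 at 0, 6 and 12 h in control cells. In Cnot3KO cells it had 8368, 5669 and 8736. The genotypes were thus within 1.11-fold of each other before ActD, and Mcl1 was 3.65-fold higher in Cnot3KO cells at 6 h and 5.26-fold higher at 12 h. At 12 h, 22.0% was left in control and 104% in Cnot3KO cells, and the control value was as low at 6 h as at 12 h. The difference in change over 12 h was 2.25 ± 0.93 (log2 and SE), at percentile 99.0 of all genes kept, and did not pass across all genes (limma, adjusted p = 0.286).

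Bcl2l1, which encodes Bcl-xL, had intensities of 1450, 430.4 and 366 in control cells. Its values in Cnot3KO cells were 1048, 617 and 683. The order of the genotypes turned with time, since Bcl2l1 was 1.38-fold lower in Cnot3KO cells before ActD and 1.43-fold and 1.86-fold higher at 6 and 12 h. Of the 0 h level, 25.2% was left at 12 h in control and 65.2% in Cnot3KO cells. The difference in change was 1.37 ± 0.66 (limma, adjusted p = 0.329).

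Bcl2, the founding member of the family, had intensities of 92.4, 110.4 and 122 in control and of 80.9, 85.0 and 90.6 in Cnot3KO cells, close to the array medians. Bcl2l2, which encodes Bcl-w, had 404, 505 and 519.6 in control and 387, 465 and 449 in Cnot3KO cells. In these brightest sets neither was below its 0 h value at any ActD time in either genotype. Other sets differed, since of the 5 sets of Bcl2, 2 were lower at 12 h than at 0 h in control and 2 in Cnot3KO cells. In 1457687_at, above the array median on 1 array, 61.9% was left at 12 h in control and 57.6% in Cnot3KO cells. The difference in change was -0.24 ± 0.28 for Bcl2, with a 95% confidence interval from -0.92 to 0.44, and -0.15 ± 0.31 for Bcl2l2, from -0.91 to 0.61 (limma). These intervals lie below the difference estimated for Mcl1 (2.25), but hold smaller ones. Since these sets did not fall in control cells, a slower loss in Cnot3KO cells had little room to show.

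The effector Bak1, which oligomerises in the mitochondrial membrane, had intensities of 268, 406 and 285 in control and of 282, 309 and 296 in Cnot3KO cells. The genotypes differed most at 6 h, where the control value was higher by 0.40 (log2), and hardly at 0 and 12 h. At 12 h, 106% and 105% of the 0 h level were left. The difference in change was -0.02 ± 0.47, with a 95% confidence interval from -1.17 to 1.13 (limma), wide enough to hold differences of over 2-fold in either direction.

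Of the BH3-only genes, Bid, whose protein is cleaved by caspase-8 to signal to mitochondria, had intensities of 504, 166 and 127 in control cells. In Cnot3KO cells they were 721, 415 and 702. Every Cnot3KO value was above the control value of the same time, by 1.43-fold, 2.50-fold and 5.53-fold. The share left at 12 h was 25.2% in control and 97.3% in Cnot3KO cells. With 1.95 ± 0.72, the difference in change lay at percentile 97.8 of all genes, and its 95% confidence interval ran from 0.18 to 3.72, but it did not pass across all genes (limma, unadjusted p = 0.0357, adjusted p = 0.253).

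Bmf, a BH3-only gene known to respond to loss of attachment, had intensities of 321, 84.3 and 82.9 in control cells. In Cnot3KO cells they were 397, 249.9 and 316, above the control value at each time by 1.24-fold, 2.97-fold and 3.81-fold. At 12 h 25.8% was left in control and 79.5% in Cnot3KO cells, a difference in change of 1.62 ± 0.77 (limma, adjusted p = 0.328). This value rests on 1 bright probe set, whose suffix marks sequence shared between transcripts.

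Bcl2l11, which encodes Bim, had intensities of 895, 333 and 283 in control cells. In Cnot3KO cells they were 593, 439.7 and 409. As for Bcl2l1, the order turned, since Bcl2l11 was 1.51-fold lower in Cnot3KO cells at 0 h and 1.32-fold and 1.45-fold higher at 6 and 12 h. At 12 h 31.6% was left in control and 69.0% in Cnot3KO cells, a difference in change of 1.13 ± 0.50 (limma, adjusted p = 0.302). A control value above Cnot3KO at 0 h and below it at both later times was seen for 2 of 9 members and 8.21% of all genes.

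Bad, whose protein is held in the cytosol by 14-3-3 proteins after phosphorylation, had intensities of 869, 1047 and 1006 in control cells. In Cnot3KO cells they were 804, 947 and 1021. The genotypes differed by at most 1.10-fold at any time, and 116% and 127% of the 0 h level were left at 12 h. The difference in change was 0.13 ± 0.30, with a 95% confidence interval from -0.60 to 0.87 (limma).

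**Figure D2:**
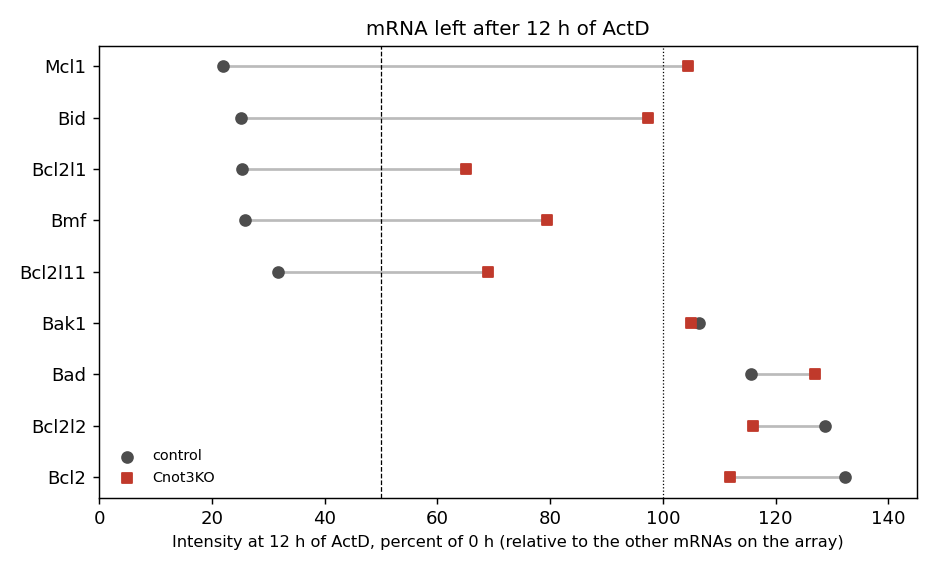
Percentage of the 0 h intensity left after 12 h of ActD (horizontal axis) for each measured member in control (grey circles) and Cnot3KO cells (red squares), 1 array per point, with dashed and dotted lines at 50% and 100%. The 5 upper genes lie between 22.0% and 31.6% in control and between 65.2% and 104% in Cnot3KO cells, and the 4 lower genes at or above 105% in both.

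In their brightest probe sets the 5 genes shared a time course. In control cells between 80.6% (Bid) and 104% (Mcl1) of the log2 difference between 0 and 12 h had been reached at 6 h. This share was at least 80% for 28.9% of the 2485 genes with at most 50% left, a cut just below the lowest of the 5. Other sets varied. In control cells Bid had 55.4% and 39.7% left at 6 and 12 h in 1448560_at, and 39.6% and 55.1% in 1447873_x_at. Bcl2l11 had 59.7% and 25.3% in 1426334_a_at, and 31.6% and 25.7% in 1435448_at. In Cnot3KO cells all 5 had their 6 h value below the 0 h value, and 4 were higher again at 12 h than at 6 h, Bid by 1.69-fold, Mcl1 by 1.54-fold, Bmf by 1.26-fold and Bcl2l1 by 1.11-fold. Bcl2l11 was at 0.931 of its 6 h value. A 12 h value above that of 6 h was seen in Cnot3KO cells for 57.2% of all genes and 48.9% of the 2485, so that on its own it does not set these members apart.

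The difference in decay was next read against all genes. Over 2-fold more of the 0 h level was left in Cnot3KO than in control cells for 5 of 9 members, against 13% of 16499 genes. The 5 also had at most 50% left in control cells, a combination that 9.66% of all genes shared, and had more left in Cnot3KO cells at both 6 and 12 h, which held for 34.4%. The median difference in change over 12 h was 1.13 (log2) over the 9 members and -0.04 over all genes kept. The share of 64.1% among the genes with at most 50% left in control cells rests on the same control arrays as this difference. A larger share left in Cnot3KO cells was therefore common among mRNAs that were low after ActD in control cells, and is not particular to the family. Whether ActD acted equally in the cultures cannot be told apart from the genotype with 1 culture for each genotype and time.

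**Figure D3:**
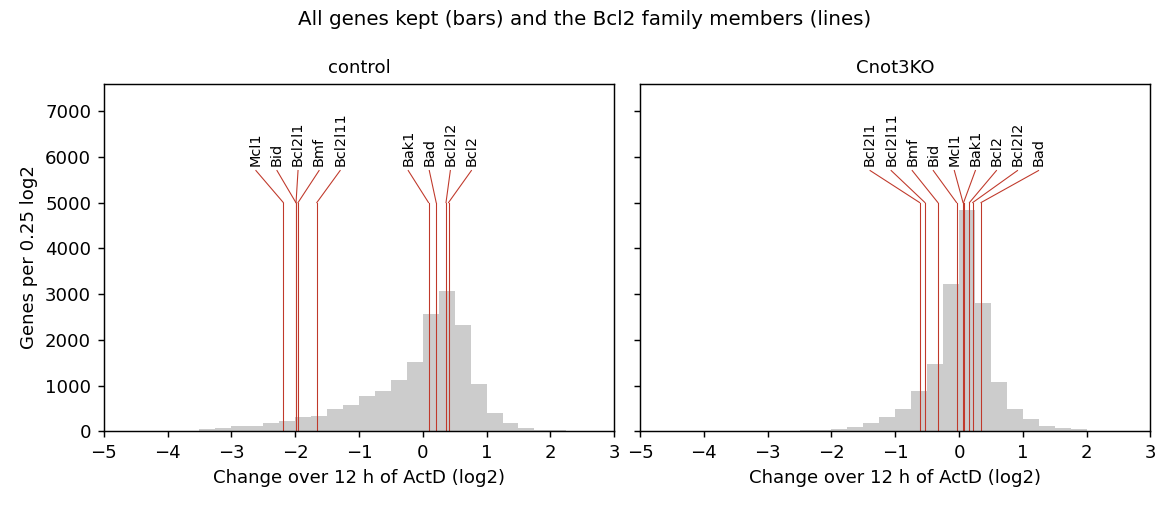
Number of genes (vertical axis, per 0.25 log2) by the change in intensity over 12 h of ActD (horizontal axis, log2) for the 16499 genes kept, in control (left) and Cnot3KO cells (right), with red lines for the 9 members. Mcl1, Bid, Bcl2l1, Bmf and Bcl2l11 lie in the lower tail in control cells, between -2.19 and -1.66, and nearer to 0 in Cnot3KO cells, between -0.62 and 0.06.

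Tested as the genotype by time term across all genes, the difference in decay passed for 0 members and for 0% of all genes in either direction (limma, adjusted p under 0.05). At an unadjusted p under 0.05 in limma, 2107 genes (12.8%) had a slower and 817 a faster estimated decay in Cnot3KO cells, with Bid the only member among them. The test has 2 residual degrees of freedom and assumes a constant rate, which the values of the 5 genes in control cells did not follow. Its SE and confidence intervals therefore reflect departure from straight lines over time, not variation between cultures. They also rest on the variances of all genes, from which limma drew a prior of 3.91 degrees of freedom. An alternative chosen after seeing the data, which takes 6 and 12 h as 1 treated state, called 0 of 9 members in the shared change (0.709% of all genes higher and 2.16% lower) and, for the difference between genotypes, 0 genes in either direction in limma (1241 slower and 190 faster at an unadjusted p under 0.05). In it the differences were 1.98 ± 0.43 for Mcl1, 1.44 ± 0.34 for Bmf, 1.38 ± 0.51 for Bid, 1.18 ± 0.33 for Bcl2l1 and 1.06 ± 0.32 for Bcl2l11, with adjusted p between 0.373 and 0.535 (limma). The SE of these differences rest on how far the 6 and 12 h values of a genotype lay apart, and on the variances of all genes.

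The change over 12 h shared by both genotypes passed for 0 of 9 members in either direction, against 5.19% of genes lower and 3.32% higher (limma; Bcl2l1 and Bcl2l11 lower at an unadjusted p under 0.05). It was -1.30 ± 0.41 for Bcl2l1 and -1.10 ± 0.33 for Bcl2l11, with adjusted p of 0.0944 and 0.0846. The value of Mcl1, -1.06 ± 0.62, averages genotypes that differed widely. Without the 12 h arrays Bcl2l1 and Bid passed (limma, adjusted p = 0.0420 and 0.0366), when 4.51% of all genes were lower.

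Before ActD 1 of 9 members differed by over 1.5-fold between the genotypes. A level over 1.5-fold higher in Cnot3KO cells was found for 0 of 9 members, against 6.87% of 16110 genes, and a level over 1.5-fold lower for Bcl2l11 alone, 1 of 9, against 2.99%. The median difference was -0.06 (log2) over the members and 0.04 over all genes. Bid, at 1.43-fold higher, and Bcl2l1, at 1.38-fold lower, were just inside the threshold. Among all genes kept, the 0 h differences of Bcl2l11, Bcl2l1 and Bid lay at percentiles 2.81, 4.89 and 91.3. These values carry no test, and Bcl2l11 at 1.51-fold lower lay barely beyond it.

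Over the 3 times together, 0 members passed in the genotype comparison, against 0.703% of genes higher and 0.285% lower in Cnot3KO cells (limma, adjusted p under 0.05). Mcl1 (1.47 ± 0.42), Bid (1.44 ± 0.36) and Bmf (1.27 ± 0.32) had adjusted p of 0.0806, 0.0668 and 0.0671 in limma, and 3 members against 33.4% of all genes had an unadjusted p under 0.05. These 3 passed with the arrays centred on Gapdh (limma, adjusted p between 0.0180 and 0.0274), when 10.9% of all genes were called higher, and with a variance trend (between 0.0438 and 0.0459), when 9.19% were. Without the 0 h arrays Mcl1, Bid, Bmf and Bcl2l1 passed (limma, adjusted p up to 0.0118), when 24.3% were. The comparison and the difference in decay share all 6 arrays and are not independent.

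The other probe sets of the members served as a check. There were 34 sets that named a member alone, of which 32 exceeded the 20th percentile on at least 1 array. For Mcl1 all 6 sets were above the array median on every array and had more left in Cnot3KO cells, with differences in change between 1.05 and 2.25 (log2). They fell into sets with 22.0% and 24.1% left at 12 h in control cells (1448503_at and 1416881_at) and 4 sets with between 49.7% and 60.2% left, and in the 4 the Cnot3KO value at 12 h was between 121% and 134% of that at 0 h. Where the sets lie along the mRNA, and whether those with a suffix match Mcl1 alone, was not analysed here.

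All 5 sets of Bcl2l11 had a positive difference, between 0.19 and 2.02. The set 1456006_at was nearly level in both genotypes, with 99.7% and 114% left at 12 h. At 0 h 4 sets were lower in Cnot3KO cells, with differences between -0.70 and -0.15 (log2), and 1426334_a_at was 0.62 higher, so that the direction before ActD depended on the set. For Bid all 3 sets were positive, between 0.81 and 1.95, but only 1 of them was above the median on every array. For Bcl2l1 all 4 were positive, between 0.26 and 1.37, where the 3 sets of lower difference were not above the median on every array. The Bcl2l1 set at 0.26 exceeded the 20th percentile on 0 arrays, so its sign carries little weight. Bmf was the exception, since its other sets were at -0.13 and -0.76, at intensities between 41.8 and 108, and did not share the direction of the bright set. For Bcl2, Bcl2l2, Bak1 and Bad the differences ran from -0.70 to 0.57 in sets of either sign.

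**Figure D4:**
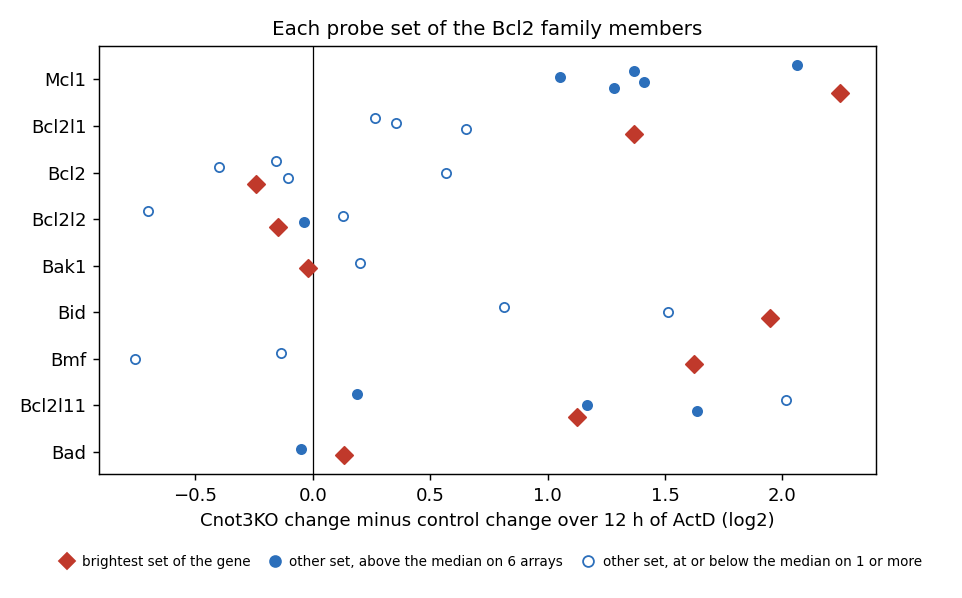
Difference in change over 12 h of ActD, Cnot3KO minus control (horizontal axis, log2), for each of the 34 probe sets of the 9 measured members, with the brightest set of each gene as a red diamond and other sets as blue circles, open where the set was at or below the array median on at least 1 array. All sets of Mcl1, Bcl2l1, Bid and Bcl2l11 lie above 0, those of Bmf on both sides, and those of Bcl2, Bcl2l2, Bak1 and Bad between -0.70 and 0.57.

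The remaining genes of the pathway were taken from lists by function. Of 16 further Bcl2 family and BH3 genes 12 were measured, with a median difference in change of 0.06 (log2). Of the 12, 1 had at most 50% left in control cells (8.33%, against 15.1% of all genes). Bbc3, the BH3-only gene that encodes Puma, was higher in Cnot3KO cells over the 3 times (1.28 ± 0.17, limma, adjusted p = 0.0499). It had intensities of 231, 181 and 241 in control and of 446, 521 and 618 in Cnot3KO cells. This call lay at the edge of the threshold. Without a filter, with a filter at the 50th percentile or with centring on ribosomal protein genes, 0 genes passed in this comparison, and so Bbc3 did not. Pmaip1, which encodes Noxa, an antagonist of Mcl1, increased over 12 h of ActD relative to other mRNAs in both genotypes (1.97 ± 0.25, limma, adjusted p = 0.0174), from 998 to 3639.6 in control and from 1207 to 5049 in Cnot3KO cells. Becn1, an autophagy protein with a BH3 domain, had 1831 in control and 1122 in Cnot3KO cells at 0 h (-0.81 ± 0.16 over the 3 times, limma, adjusted p = 0.0543). Bik, Bok and Bnip3 had genotype differences of -0.21, -0.30 and -0.17 (log2) that did not pass (limma, adjusted p between 0.225 and 0.413). Bcl2a1b and Bnip3l had no probe set of their own.

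Downstream of the mitochondria, 19 of 21 apoptosome, caspase and inhibitor of apoptosis genes were measured, with a median difference in change of 0.25 (log2). Of the 19, 3 had at most 50% left in control cells (15.8%), near the 15.1% of all genes. Apaf1, the scaffold of the apoptosome, resembled the 5 members, with intensities of 545, 155 and 82.7 in control and of 599.5, 359.7 and 416 in Cnot3KO cells. It had 15.2% and 69.3% left at 12 h, a difference of 2.19 ± 0.52 (limma, adjusted p = 0.185). Xiap, an inhibitor of caspases, had 55.4% left in control and 87.1% in Cnot3KO cells. Cycs, Diablo and Casp9, which encode cytochrome c, Smac and the initiator caspase, had between 105% and 140.3% left in either genotype. Birc6, a giant inhibitor of apoptosis, was lower after ActD in both genotypes (-1.11 ± 0.19, limma, adjusted p = 0.0293), with 46.6% and 46.4% left.

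In the death receptor pathway 13 of 14 genes were measured, and 4 (30.8%) had at most 50% left in control and 0 in Cnot3KO cells. The shares of all genes were 15.1% and 4.38%. Cflar, which encodes the caspase-8 inhibitor c-Flip, had intensities of 513, 148 and 143 in control and of 468, 259 and 262 in Cnot3KO cells, with 27.9% and 56.1% left at 12 h. The receptor gene Fas increased over 12 h relative to other mRNAs (1.40 ± 0.28, limma, adjusted p = 0.0360), from 258 to 477 in control and from 198 to 739 in Cnot3KO cells, as did Tnfrsf10b, the receptor for Trail (0.91 ± 0.20, adjusted p = 0.0441 in limma). Casp8, the protease that cleaves Bid, had 91.2% and 93.8% left.

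Of 22 regulators of Bcl2 family proteins 22 were measured. At most 50% was left for 6 (27.3%) in control and 2 (9.09%) in Cnot3KO cells, against 15.1% and 4.38% of all genes. The deubiquitinase gene Usp9x, whose product stabilises Mcl1 protein, was lower after ActD in both genotypes (-1.58 ± 0.22, limma, adjusted p = 0.0201), with 25.7% left in control and 43.4% in Cnot3KO cells, and so was the kinase gene Gsk3b (-2.63 ± 0.47, limma, adjusted p = 0.0302), with 9.58% and 27.4% left. Huwe1, the ligase that marks Mcl1 protein for degradation, had 76.1% and 59.1% left, and Dynll1, the dynein light chain that binds Bcl2l11, 100.2% and 114%. Ddit3, which encodes the stress factor Chop, had 457, 399 and 722 in control and 949.6, 638 and 712 in Cnot3KO cells, a higher Cnot3KO value at 0 and 6 h but not at 12 h, and the genotype comparison did not pass (limma, adjusted p = 0.148). Over these 4 lists the difference in decay passed for 0 genes in limma (1 of 12, 3 of 19, 3 of 13 and 3 of 22 slower and, among the regulators, 1 faster at an unadjusted p under 0.05). At that threshold 12.8% of all 16499 genes were slower and 817 faster, so these counts do not set the lists apart.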

How the data were processed

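Total RNA from fetal hepatocytes was hybridised to Affymetrix Mouse Genome 430 2.0 arrays, 1 for each of 6 combinations of genotype and time, and samples were grouped by their labels. The authors computed 1 value per probe set by Robust Multi-array Average (RMA; version not given in the sources used here), which corrects background, equalises the arrays and summarises probes. The deposited values are intensities on a linear scale for 45037 probe sets, with 0 missing values, and log2 was taken here. Of these, 34945 probe sets carried 1 symbol in the platform annotation, 932 several and 9160 none, and the gene identifiers of all 9 measured members were found in the RefSeq table.

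Each gene was represented by its set of highest mean, and 16499 genes above the 20th percentile on at least 1 array were tested (16110 at 0 h). All 9 measured members passed this filter. The percentile follows the authors' own filter. Models were fitted with limma 3.58.1 (R 4.3.3), lmFit and eBayes, with Benjamini-Hochberg adjustment over all genes at 0.05. They comprised genotype with time as a factor, genotype with a slope over hours, and the genotype by hours term, each slope times 12 h. Differences at 0 h were counted beyond 1.5-fold with no test. Members, gene lists and named genes were chosen with earlier results of these data known. Named were all members, a fixed set of genes from the lists and any pathway gene past a test.

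In data simulated for the 16499 genes, a difference in decay of 1 (log2) was recovered for 2% of changed genes with moderated variances and for 1% with variances drawn from the prior, one of 2 for 90% and 18%, and one of 4 for 100% and 91%. Precision is limited by how few arrays there were. Alternatives were the filter, the choice of probe set, centring on ribosomal protein genes or Gapdh (whose probe set other symbols share), a variance trend, leaving out the arrays of 1 time, other time terms and the methods' t-test.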

Additional observations from a re-analysis of the deposited data

Results flagged for a closer look

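In 4 probe sets of Mcl1 other than the brightest, both ActD values lay below the 0 h value in control cells and both lay above it in Cnot3KO cells. Their difference in change over 12 h was 1.28 (1437527_x_at), 1.41 (1416880_at), 1.05 (1456243_x_at) and 1.37 (1456381_x_at) on the log2 scale. In the fit of every probe set on its own, the differences had unadjusted p between 0.0175 and 0.0799 in limma and adjusted p between 0.289 and 0.394, so none passed. All but 1416880_at carry a suffix, as the bright set of Bmf does, and whether they match Mcl1 alone was not tested. The brightest Mcl1 set did not show opposite directions at 6 h, when 67.7% was left in Cnot3KO cells. The Bcl2l11 set 1456006_at was picked out in the same way, with a difference of only 0.19 (limma, adjusted p = 0.785), below the SD of 0.42 between probe sets of a gene.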

How the results depend on the processing

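No pairing by embryo or culture was possible because each genotype and time has 1 array and the labels carry no replicate numbers. The genotype comparison, with time as a factor, matches the genotypes by time only. The count of members with at most 50% left at 12 h was 5 in control and 0 in Cnot3KO cells without a filter, with a filter at the 50th percentile, with probe sets on their own and with centring on Gapdh or ribosomal protein genes. With sets without a suffix it was 4 in control cells. When the probe sets of each gene were averaged it was 3 in control cells, 3 members had over 2-fold more left in Cnot3KO cells and 0 passed 1.5-fold at 0 h, as with centring on ribosomal protein genes (0). Over 2-fold more left held for 4 members with centring on Gapdh. In the genotype comparison 3 members passed with centring on Gapdh, 3 with the variance trend and 4 without the 0 h arrays, and 2 passed in the shared change without the 12 h arrays.

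Directions turned as follows (log2). In the genotype comparison the mean of probe sets gave 0.0152 for Bcl2l2, 0.12 for Bak1 and 0.0210 for Bad, sets without a suffix 0.12 for Bad and -0.0624 for Bmf, the fit without 6 h -0.0305 for Bcl2l11 and 0.0632 for Bak1, and that without 12 h -0.10 for Bcl2l11. In the shared change the mean of sets gave -0.10 for Bcl2 and -0.11 for Bak1, and sets without a suffix 0.12 for Bmf. The fit without 0 h, a slope from 6 to 12 h times 12 h, gave -0.0066 for Bcl2l2, 0.72 for Mcl1, -0.57 for Bak1, 0.37 for Bid and 0.31 for Bmf. Slopes without the 0 h or the 12 h arrays span 6 h but are scaled to 12 h. Their values here and below are therefore larger in size than the change between the arrays. In the difference in decay the mean of sets gave 0.0904 for Bak1, sets without a suffix -0.0520 for Bad and -0.13 for Bmf, ribosomal centring 0.0383 for Bak1, Gapdh centring -0.0809 for Bad, and leaving out 0 h 0.90 for Bak1 and 12 h -0.0635 for Bad. None of these turned values passed the test where there was one. For Bmf the turn follows from the loss of its bright set, and the cause was not tested otherwise.

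Over all genes, the genotype comparison gave 116 higher and 47 lower as reported. It gave 0 in limma without a filter (at an unadjusted p under 0.05, 3785 higher and 1976 lower), with the 50th percentile (3423 and 1464), with ribosomal centring (3810 and 1628) and without 6 h (1733 and 452), and 0 by the methods' t-test after adjustment (1662 and 1028 at their threshold). It gave 1 and 2 with probe sets on their own, 42 and 21 without 12 h, 490 and 159 with sets without a suffix, 1212 and 413 with the mean of sets, 1318 and 438 with linear hours, 1516 and 547 with the trend, 1806 and 833 with Gapdh and 4004 and 1806 without 0 h. The shared change gave 547 higher and 857 lower, 0 without 6 h in limma (990 and 1889 at an unadjusted p under 0.05), 53 and 152 without 0 h, 134 and 744 without 12 h, 117 and 357 for 0 h against both ActD times and 836 and 1619 with probe sets on their own. At 0 h the 1107 higher and 482 lower genes made 69.7% higher, against 55.9% with Gapdh and 58.0% with probe sets on their own. Gapdh centring moved the median difference in decay of all genes from -0.04 to -0.25.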

Other observations

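Genes of the pathway lists outside the rule for named genes, chosen after their values were seen, included some with larger differences in decay than most members. Ppp2ca, the catalytic subunit of protein phosphatase 2A, which acts on several Bcl2 family proteins, had intensities of 6276, 3147 and 1292 in control and of 7465, 6730 and 6810 in Cnot3KO cells, a difference in change of 2.15 (limma, adjusted p = 0.179). Birc2, an inhibitor of apoptosis protein, had 573, 286 and 257 in control and 647, 644 and 885 in Cnot3KO cells (1.61, limma, adjusted p = 0.189). Dffb, the nuclease that cuts DNA in apoptosis, had 115, 68.5 and 77.0 in control and 141, 254 and 340.1 in Cnot3KO cells (1.86, limma, adjusted p = 0.185). Tnfrsf1a, the receptor for Tnf, had 1889, 675 and 525 in control and 1629, 1142 and 1296 in Cnot3KO cells, with 27.8% and 79.5% left at 12 h (limma, adjusted p = 0.239). In each of these the Cnot3KO values at 6 and 12 h were above the control values of the same time.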
